A study of Mus musculus with 2 samples.

Results

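The mitogen-activated protein (MAP) kinase phosphatases are enzymes that switch off MAP kinases, and the genes of 10 of them, Dusp1, Dusp2, Dusp4, Dusp5, Dusp6, Dusp7, Dusp8, Dusp9, Dusp10 and Dusp16, were followed in Setd2 KO and wild type mouse embryonic stem cells. The genes were taken by symbol, and all 10 had a row among the 17817 genes measured. Setd2 encodes a histone methyltransferase that marks transcribed genes. The series holds 2 RNA-seq libraries, 1 from a Setd2 KO line and 1 from a wild type line, both of mixed 129SV/C57BL/6 strain at passages 10 to 12. Both lines were kept on feeder cells, separated from them by 0.5 h on gelatin and collected after 2 days on fresh gelatin, with no treatment. The sources used here do not say how Setd2 was disrupted. Each genotype is 1 line without a replicate, so every difference below describes these 2 libraries and carries no test.

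MAP kinases are activated when a kinase adds phosphate to a threonine and a tyrosine of their activation loop, and a dual-specificity phosphatase removes both. Each member joins a docking domain, which chooses the kinase, to a catalytic domain with a cysteine at its active site. Many of these genes are themselves induced by MAP kinase signalling, so they act as negative feedback. In embryonic stem cells, ERK activity driven by fibroblast growth factor moves cells out of the naive pluripotent state, and the phosphatases that act on ERK restrain it. By textbook substrate and location the genes form 3 groups. Dusp1, Dusp2, Dusp4 and Dusp5 are inducible and nuclear, Dusp6, Dusp7 and Dusp9 are cytoplasmic and prefer ERK, and Dusp8, Dusp10 and Dusp16 prefer the stress kinases JNK and p38.

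The proteins were compared as well. Translated from the annotation, they ran from 318 residues for Dusp2 to 676 for Dusp16, and each of the 10 held the active-site signature of a histidine, a cysteine and a downstream arginine exactly 1 time. The closest pair was Dusp6 and Dusp7, with 70.2% identity over 372 aligned residues, followed by Dusp1 and Dusp4 with 63.5% over 367. Dusp8 and Dusp16 shared 46.2% over 625. Of 45 pairs, the 10 most alike all lay within a group, and the first pair across groups was Dusp2 and Dusp6 with 39.8%. Dusp10 did not follow its group. It was most like Dusp6, with 38.1%, and shared 37.7% with Dusp16 and 37.3% with Dusp8. Few reads could have come from elsewhere in the genome. For each member 20 exonic windows of 76 bases were aligned, and 2 matched another place for Dusp7 and 0 did for each of the other members.

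The Setd2 KO library held 52041677 read equivalents (sequenced bases over genes in units of 76 bases) and the wild type library 56129838. Levels are given per 1000000 of these (counts per 1000000, CPM), so 1 CPM stood for 52.0 read equivalents in KO cells and 56.1 in wild type cells. Setd2 itself was at 174 CPM in KO cells, against 452 CPM in wild type cells, a ratio of 38.5%. The libraries differed in other ways. Genes of chromosome 8 had a median log2 fold (KO over wild type) of -0.35 over 719 genes, and the Y-linked gene Ddx3y was at 176 CPM in KO cells and 0.445 CPM in wild type cells. Embryonic stem cell markers summed to 2955 CPM in KO cells and 3322 CPM in wild type cells over 9 measured genes, and Pou5f1 was at 544 CPM in KO cells and 558 CPM in wild type cells. Of the 9 markers, 7 were below 0 and 2 above 0, with a median log2 fold of -0.30. By 1.5-fold or more 2 were lower and 0 higher. Zfp42, with a log2 fold of -2.05, was the 1 embryonic stem cell marker at least 2-fold apart. It lies on chromosome 8, and 60% of its windows matched other places. So did 80% of the windows of Dppa5a and 55% of those of Nanog, the 2 markers above 0. The share was 35% for Tdgf1, 25% each for Pou5f1 and Klf4, and 0% each for Sox2, Esrrb and Utf1. The summed marker level thus includes genes whose reads may come from elsewhere.

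Of the 10 phosphatase genes, Dusp1 and Dusp4 stood far lower in KO cells, and the other inducible nuclear genes were lower as well. Dusp7 and, by less, Dusp9 of the cytoplasmic group were also lower, while Dusp6, the most abundant of all, was higher. Members were compared where the mean of the 2 libraries reached 1 CPM, which 9 did. Of these, 2 stood lower in KO cells by 2-fold or more, and 0 stood higher by as much. Over all 13523 genes compared, 2.11% were lower by 2-fold or more and 1.76% higher. At a threshold of 1.5-fold, 3 members were lower and 0 higher, against 6.77% of all genes lower and 7.42% higher. The median log2 fold of the 9 members was -0.19, against 0.05 over all genes compared. Members below 0 numbered 6 and members above 0 numbered 3, and 43.6% of all genes were below 0. Folds in log2 were taken after adding 0.5 CPM, so they understate the difference of low genes. Percentages of the wild type value were taken without it and carry a 95% interval that covers counting error only. In RNA from a whole culture, fewer cells that express a gene and less RNA per cell cannot be told apart.

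**Figure D1:**
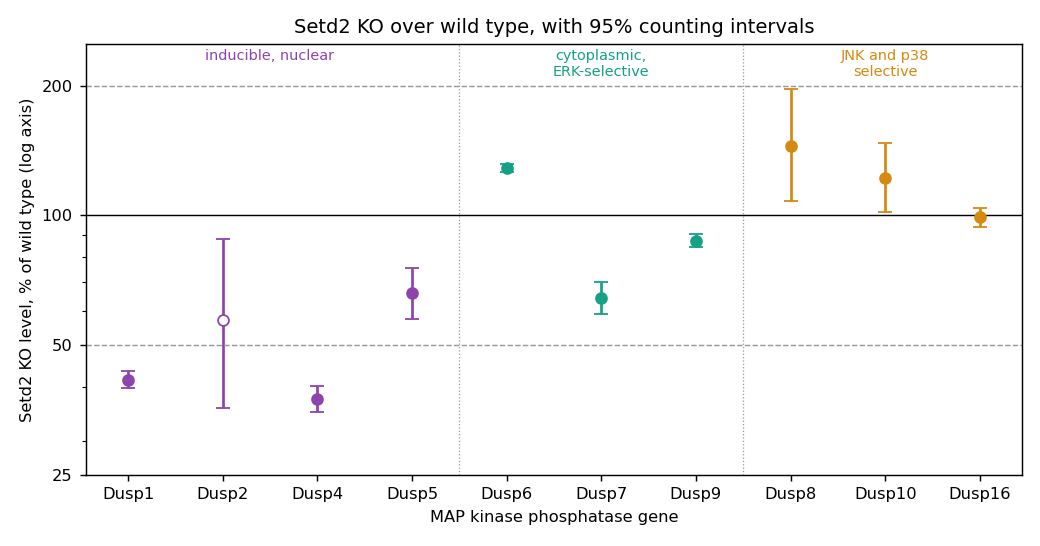
Level in the Setd2 KO library as a percentage of the wild type value (log axis) for each phosphatase gene, grouped by location and substrate; bars are 95% counting intervals, dashed lines mark 2-fold, and the open symbol is Dusp2, below the floor of 1 CPM. Dusp1 at 41.6% and Dusp4 at 37.5% lie below the lower dashed line, and all 4 inducible nuclear genes lie below 100%. Dusp7 at 64.3% and Dusp9 at 87.4%, of the cytoplasmic group, lie below 100% too.

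The inducible nuclear genes were lower in KO cells in each case. Dusp1 (gene number 19252, chromosome 17, 26642537 to 26645417, mm9), which acts on JNK, p38 and ERK and is induced within minutes by serum and stress, had 2486 read equivalents or 47.8 CPM in KO cells, against 6446 or 115 CPM in wild type cells. That was 41.6% of wild type (interval 39.7 to 43.6%, log2 fold -1.26). Of all genes compared, 1.24% had a lower fold. Dusp4 (chromosome 8, 35870664 to 35882948), a nuclear phosphatase of ERK and JNK and a common readout of ERK activity, had 1061 read equivalents or 20.4 CPM in KO cells, against 3050 or 54.3 CPM in wild type cells. That was 37.5% (interval 35.0 to 40.2%, log2 fold -1.39), the lowest ratio of the 10 members, and 0.902% of all genes compared had a lower fold.

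Dusp5 (chromosome 19, 53603808 to 53615812), which is specific for ERK and holds it in the nucleus, was at 6.58 CPM in KO cells and 9.98 CPM in wild type cells, 65.9% of wild type (interval 57.6 to 75.7%). Its log2 fold of -0.57 fell just short of the 1.5-fold threshold, but it passed with a pseudocount of 0.1 (-0.59) and under each of the 3 rescalings (-0.60 to -0.62), so this call depends on the setting. Dusp2 (chromosome 2, 127161895 to 127164113), best known from activated lymphocytes, was barely expressed, with 32 read equivalents or 0.621 CPM in KO cells and 61 or 1.09 CPM in wild type cells. Its mean was under 1 CPM, so it is the 1 member left out of the counts. Its ratio was 57.1%, with a wide interval of 35.7 to 88.2%. The order within the group was thus Dusp4, Dusp1, Dusp2 and Dusp5 from the lowest ratio up. The intervals of Dusp1 and Dusp4 each lay wholly below that of Dusp5 and overlapped that of Dusp2 and each other.

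Promoters of the inducible group are shown because its members were lower together, with those of Dusp6 and Dusp8, which were higher, beside them. They are 300 bases, 250 before and 50 after the start site, from RefSeq on GRCm38.p6, which matched 8 of the 10 genes, all but Dusp4 and Dusp9. Capitals mark TGACG, the core of the cyclic AMP response element, on either strand, and the CArG box, the site bound by serum response factor. The positions are chr17:26508423-26508722 (minus strand) for Dusp1, chr2:127335909-127336208 (plus) for Dusp2, chr19:53528895-53529194 (plus) for Dusp5, chr10:99262981-99263280 (plus) for Dusp6 and chr7:142095235-142095534 (minus) for Dusp8.
Dusp1: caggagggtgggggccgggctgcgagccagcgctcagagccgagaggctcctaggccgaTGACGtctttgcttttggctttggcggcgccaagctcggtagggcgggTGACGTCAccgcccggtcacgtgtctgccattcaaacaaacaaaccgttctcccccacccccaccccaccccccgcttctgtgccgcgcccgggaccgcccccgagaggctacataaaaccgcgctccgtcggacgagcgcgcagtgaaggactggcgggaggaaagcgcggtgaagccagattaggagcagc
Dusp2: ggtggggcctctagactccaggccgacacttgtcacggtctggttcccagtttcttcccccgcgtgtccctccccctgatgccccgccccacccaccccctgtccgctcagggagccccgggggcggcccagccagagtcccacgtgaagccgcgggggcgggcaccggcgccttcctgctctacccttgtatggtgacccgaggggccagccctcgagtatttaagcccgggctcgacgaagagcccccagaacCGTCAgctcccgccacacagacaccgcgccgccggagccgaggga
Dusp5: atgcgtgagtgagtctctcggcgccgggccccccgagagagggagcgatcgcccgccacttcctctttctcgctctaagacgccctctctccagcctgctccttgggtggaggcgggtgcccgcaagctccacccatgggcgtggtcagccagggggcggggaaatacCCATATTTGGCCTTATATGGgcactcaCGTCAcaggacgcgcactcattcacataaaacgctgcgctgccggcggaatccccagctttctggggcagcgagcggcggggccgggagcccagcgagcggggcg
Dusp6: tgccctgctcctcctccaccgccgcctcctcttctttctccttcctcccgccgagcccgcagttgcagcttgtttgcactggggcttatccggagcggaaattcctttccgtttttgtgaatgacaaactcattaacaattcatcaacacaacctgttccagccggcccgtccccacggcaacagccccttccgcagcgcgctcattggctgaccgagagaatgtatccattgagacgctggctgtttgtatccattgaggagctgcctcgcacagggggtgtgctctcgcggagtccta
Dusp8: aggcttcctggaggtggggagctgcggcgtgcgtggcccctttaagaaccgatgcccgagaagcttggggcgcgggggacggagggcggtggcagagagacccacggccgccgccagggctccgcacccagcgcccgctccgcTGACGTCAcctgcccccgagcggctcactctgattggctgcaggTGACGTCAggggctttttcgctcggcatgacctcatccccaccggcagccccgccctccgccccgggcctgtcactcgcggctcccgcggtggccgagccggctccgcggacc

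The Dusp1 window held the full element TGACGTCA, which starts 143 bases before the start site, and another TGACG upstream of it. The Dusp5 window held a pair of adjoining CArG boxes, which start 82 and 72 bases before the start site, and both a TGACG and the ETS core GGAAGT on the minus strand. The Dusp2 window held TGACG just after the start site, on the minus strand. Dusp8 held TGACGTCA at 2 places, although it was higher in KO cells, and the Dusp6 window held none of these letters. Among the matched windows not shown, that of Dusp16, at nearly equal levels in the libraries, held TGACG. Those of Dusp7, which was lower, and Dusp10, which was higher, held none of these letters. Over all 32851 promoters, 1.79% held TGACGTCA, 20.8% TGACG (which also counts each TGACGTCA), 23.8% GGAAGT and 1.63% a CArG box, searched on both strands. In the 8 member promoters the counts were 2 with TGACGTCA, 5 with TGACG, 1 with GGAAGT and 1 with a CArG box. TGANTCA, found in 7.81% of all promoters, and TATAAA, found in 13.6%, were in 0 of the 8. The 8 windows were 57.3 to 78.7% G or C, against a median of 52.7% over all promoters. The shares were not adjusted for this. A match describes the letters of the window and says nothing of binding in these cells.

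The cytoplasmic ERK-selective genes had no common direction. Dusp6 (chromosome 10, 98725865 to 98730122), the classic feedback phosphatase of fibroblast growth factor signalling, had 15665 read equivalents or 301.0 CPM in KO cells, against 13104 or 233 CPM in wild type cells. It was at 129% of wild type (interval 126 to 132%). Its log2 fold of 0.37 was above that of 82.1% of all genes compared. Dusp7 (chromosome 9, 106270963 to 106278052), the closest relative of Dusp6 by sequence, was lower, at 16.1 CPM in KO cells and 25.1 CPM in wild type cells, 64.3% of wild type (interval 59.0 to 70.1%, log2 fold -0.62). Dusp9 (X chromosome, 70884780 to 70888853), required for placental development, was at 105 CPM in KO cells and 120 CPM in wild type cells, 87.4% of wild type (interval 84.3 to 90.6%). Its log2 fold was -0.19, while the median over 506 X-linked genes was 0.17.

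The JNK and p38 selective genes were close in the libraries or slightly higher in KO cells. Dusp16 (chromosome 6, 134665491 to 134742646), a phosphatase of JNK, was at 53.9 CPM in KO cells and 54.5 CPM in wild type cells. The ratio was 99.1% with an interval of 94.1 to 104% that spans equal levels. Dusp10 (chromosome 1, 185858340 to 185899515), which acts on JNK and p38 and is known for its part in immune responses, had 250 read equivalents or 4.80 CPM in KO cells, against 220 or 3.93 CPM in wild type cells, 122% of wild type (interval 102 to 148%). Dusp8 (chromosome 7, 149267401 to 149276175), mostly a brain and heart gene, had 108 read equivalents or 2.07 CPM in KO cells and 80 or 1.43 CPM in wild type cells, 145% (interval 108 to 197%). At this depth the ratios of Dusp8 and Dusp10 are known only within these intervals. Their log2 folds of 0.41 and 0.26 were below 1.5-fold.

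Per length of exons the genes differed by more than 100-fold in level, and the order changed little between the libraries. In the KO library Dusp6 led with 107.7 CPM per kilobase, followed by Dusp9 with 38.4, Dusp1 with 17.7, Dusp4 with 7.44, Dusp16 with 7.05, Dusp7 with 4.81, Dusp5 with 2.66, Dusp10 with 1.58, Dusp8 with 0.425 and Dusp2 with 0.310 CPM per kilobase. In the wild type library Dusp6 led with 83.5 CPM per kilobase, followed by Dusp9 with 43.9, Dusp1 with 42.6, Dusp4 with 19.8, Dusp7 with 7.47, Dusp16 with 7.12, Dusp5 with 4.04, Dusp10 with 1.29, Dusp2 with 0.543 and Dusp8 with 0.293. Neighbours in that order whose counting intervals overlapped were Dusp4 and Dusp16, and Dusp8 and Dusp2, in KO cells. In the wild type library they were Dusp9 and Dusp1, and Dusp7 and Dusp16. Dusp9 and Dusp1 thus stood at nearly the same level per length in wild type cells, with a ratio of 1.03, while in KO cells Dusp9 was 2.17 times Dusp1. This order depends on the length used: per length of the longest transcript, Dusp1 (49.7 CPM per kilobase) stood above Dusp9 (43.9) in wild type cells, and Dusp16 stood above Dusp4 in KO cells (10.6 and 7.44) and above Dusp7 in wild type cells (10.7 and 7.81).

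**Figure D2:**
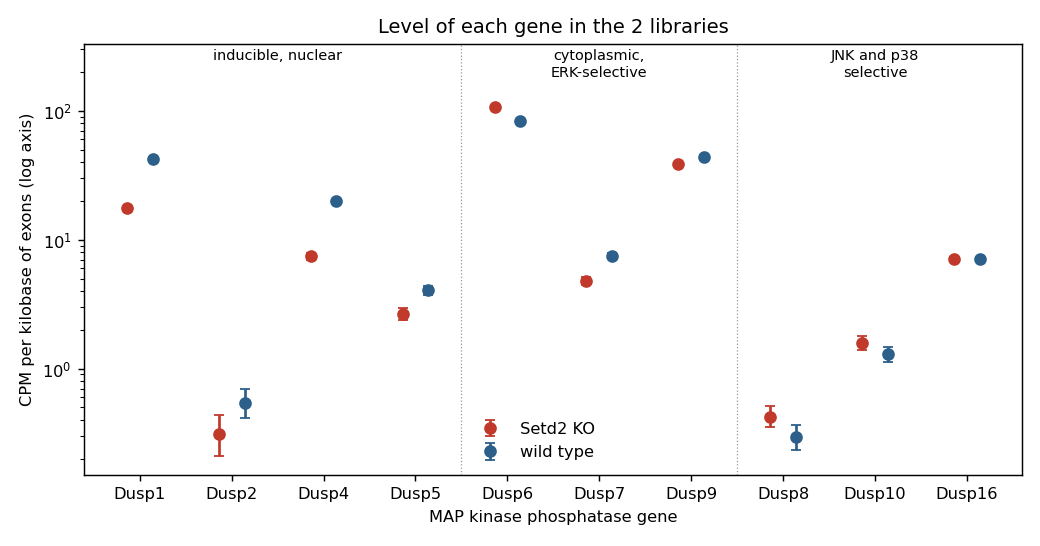
Level of each phosphatase gene in CPM per kilobase of exons (log axis), with the Setd2 KO library in red and the wild type library in blue; bars are 95% counting intervals, mostly smaller than the symbols. Dusp6 is highest in both libraries, at 107.7 CPM per kilobase in KO cells and 83.5 in wild type cells, and Dusp1 and Dusp4 show the widest gaps between the libraries.

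The make-up of the summed phosphatase RNA differed more than its total. Over the 10 genes the summed level per length was 188 CPM per kilobase in KO cells and 211 in wild type cells, 89.3% of the wild type value. The inducible nuclear group summed to 28.1 CPM per kilobase in KO cells and 67.0 in wild type cells, which was 42.0%. The cytoplasmic group summed to 151 in KO cells and 135 in wild type cells, or 112%, and the JNK and p38 group to 9.05 in KO cells and 8.70 in wild type cells, or 104%. Dusp6 alone made up 57.3% of the summed level in KO cells and 39.6% in wild type cells. Dusp1 made up 9.42% in KO cells and 20.2% in wild type cells, and Dusp4 made up 3.96% in KO cells and 9.42% in wild type cells. Dusp9 held nearly the same share, 20.4% in KO cells and 20.9% in wild type cells. The ratio of Dusp6 to Dusp4 per length was 14.5 in KO cells and 4.21 in wild type cells.

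**Figure D3:**
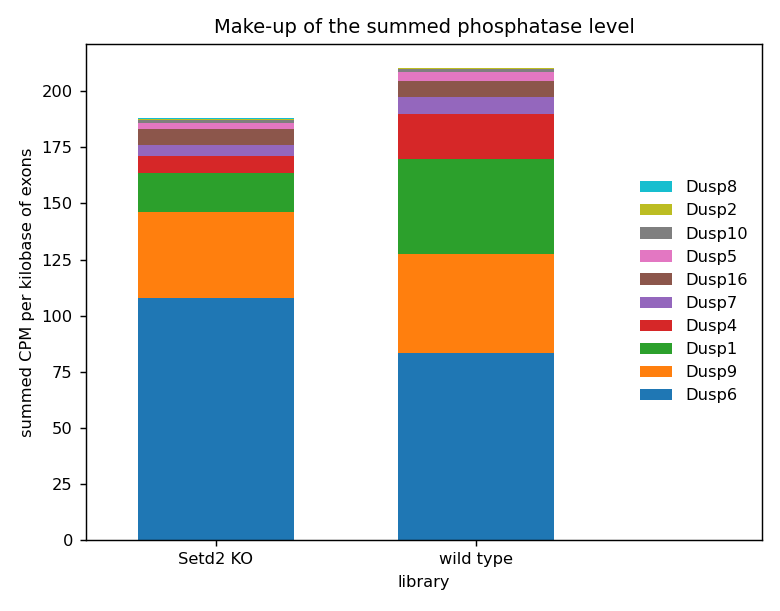
Summed level of the 10 phosphatase genes in CPM per kilobase of exons, stacked by gene, in the Setd2 KO library and the wild type library. Dusp6, at the base, takes 57.3% of the KO column and 39.6% of the wild type column, while the Dusp1 and Dusp4 blocks are thinner in the KO column.

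Neighbouring genes on the chromosome were read beside each member. Dusp4 lies on chromosome 8, whose genes were lower as a whole. The 5 compared genes on each side of Dusp4 had a median log2 fold of -0.20 and ran from -0.68 to 0.76, so Dusp4, at -1.39, was below all 10. Its fold was 1.05 below the chromosome median of -0.35, and 10 of the 719 compared genes of the chromosome, or 1.39%, had a lower fold. On chromosome 8, 5.56% of the compared genes were at least 2-fold lower. Dusp1 had neighbours with a median of 0.04, and 1 of 10 (Luc7l, at -2.23, named after its value was seen) had a lower fold. Dusp5 and Dusp2 were below all 10 of their neighbours, whose medians were 0.19 and 0.24. Dusp7 was below 9 of 10 neighbours, with a median of 0.02. Dusp9 sat among its neighbours, whose median was -0.22, and Dusp6, Dusp8, Dusp10 and Dusp16 also lay within the range of theirs. With 10 genes on each side, Dusp9 was below 14 of 20 (median -0.04) and Dusp7 below 16 of 20 (median -0.10). Dusp2, Dusp4 and Dusp5 stayed below all 20, and Dusp1 was below 19. In gene span Dusp2 with 2219 bases and Dusp1 with 2881 bases were the shortest members, and Dusp16 with 77156 bases, at nearly equal levels in the libraries, was the longest.

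**Figure D4:**
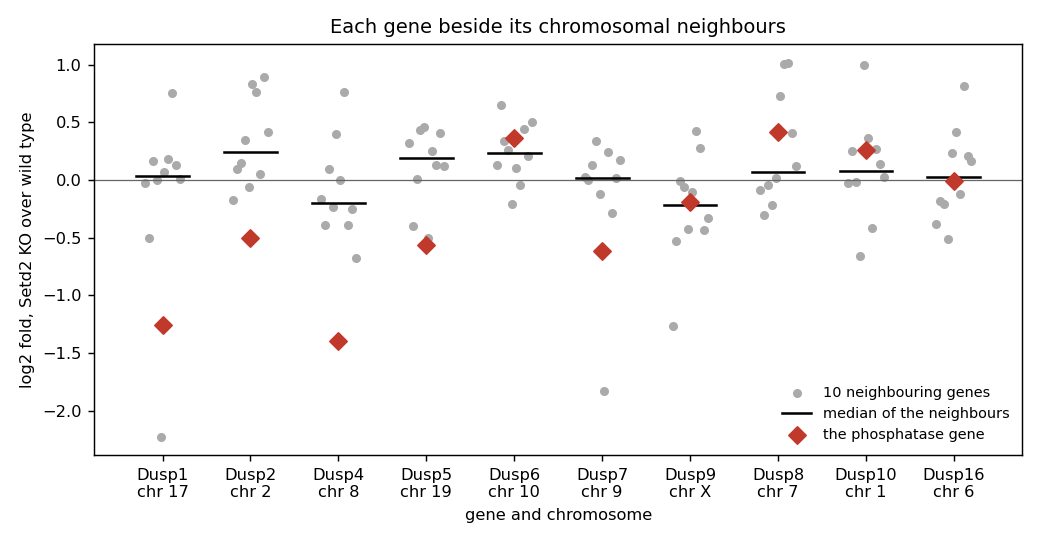
Log2 fold of each phosphatase gene, Setd2 KO over wild type (red diamonds), beside the 5 nearest compared genes on each side of it on the same chromosome (grey points) and their median (black lines). Dusp4 lies below all 10 neighbours although their median is -0.20, while Dusp9 lies close to the median of its neighbours.

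The MAP kinase genes, which include those of the substrates of these phosphatases, were at similar levels in the libraries. Of 12 MAP kinase genes compared, 0 were at least 2-fold apart, 6 were above 0 and 6 below 0, with a median log2 fold of 0.06. Among all genes compared, 2.11% were at least 2-fold lower and 1.76% higher. The ERK gene Mapk3 had a log2 fold of -0.18, the JNK gene Mapk9 0.33 and the p38 gene Mapk14 -0.27, and 30% of the windows of Mapk3 were shared with other places. Mapk8 was not analysed here, and Mapk10, a JNK gene below the floor, was at 1.24 CPM in KO cells and 0.185 CPM in wild type cells. The largest of the list were Mapk13, a p38 gene, at 0.41 and Mapk6 at -0.34. The 7 MAP kinase kinases had a median of 0.04 with 0 at least 2-fold apart, and ran from Map2k7, the JNK activator on chromosome 8, at -0.66 and Map2k2 at -0.57 to Map2k3, a p38 activator, at 0.54.

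Other phosphatases were mostly close in the libraries. Over all genes compared, 2.11% were at least 2-fold lower and 1.76% higher by as much. The 11 compared atypical dual-specificity phosphatases, which lack the docking domain, had a median of 0.13 and 0 at least 2-fold apart, with Dusp22 at 0.56, Styx at 0.53 (75% of windows shared) and Dusp19 at 0.35 the largest. Of 6 compared phosphatases outside the family that act on MAP kinases, 1 was at least 2-fold lower. That was Ptpn7, a tyrosine phosphatase of ERK and p38, at 2.93 CPM in KO cells and 7.70 CPM in wild type cells, a log2 fold of -1.26. The list had a median of -0.15, with Ppp2r1a, a scaffold subunit of protein phosphatase 2A, at -0.33 and Ppm1b at 0.20 (60% of windows shared). The 12 other cysteine phosphatases of the fold had a median of 0.20 and 0 at least 2-fold apart, with Cdc14a at 0.68, Ssh1, which acts on cofilin, at -0.62 and Ptp4a2 at 0.57 (45% of windows shared).

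Genes induced by ERK signalling were also read beside the phosphatases. Of 15 immediate early genes, 7 were lower in KO cells by 2-fold or more and 0 were higher by as much. Over all genes compared the shares were 2.11% and 1.76%. In the list 13 genes were below 0 and 2 above 0, the highest at 0.24. The list median was -0.76, and among its genes averaging 5 CPM or more, the largest folds were those of Fosb at -3.65, Fos at -2.78 and Egr1 at -1.67. Egr2, below that mean and named after its value was seen, was at -2.08. Without chromosome 8, which carries Dusp4, Ier2 and Junb, that median was -0.53. Dusp1 and Dusp4, at -1.26 and -1.39, lay within the range of that list, and Dusp5 at -0.57 was above its median. Of 12 other ERK feedback genes, 1 was lower by 2-fold or more and 0 were higher, with a median of -0.13. The largest were Phlda1 at -1.09, the transcription factor gene Etv4 at -0.77 and the receptor antagonist gene Spry1 at 0.55. Dusp6 at 0.37 was on the higher side of that list, of which 3 members were above 0 and 9 below 0.

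**Figure D5:**
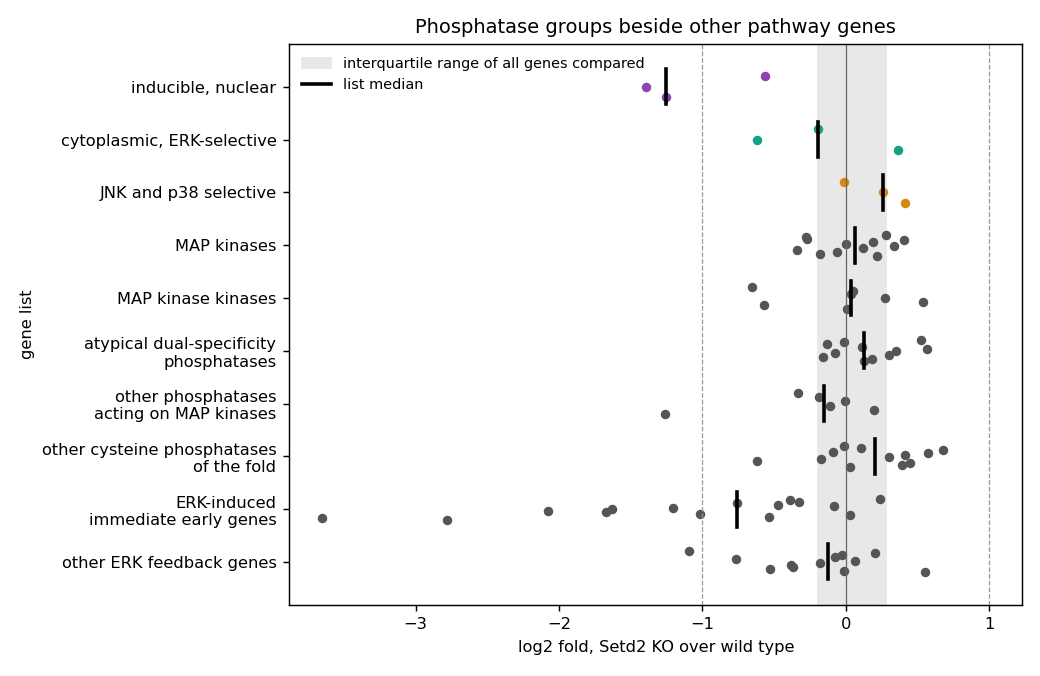
Log2 fold, Setd2 KO over wild type, of each compared gene in the 3 phosphatase groups (coloured) and 7 other gene lists (grey), with list medians as black bars, dashed lines at 2-fold and the interquartile range of all genes compared shaded. The inducible nuclear group, at -1.26, and the immediate early genes, at -0.76, have the lowest medians.

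Markers of other cells were read beside the phosphatase genes. All 8 compared primitive endoderm markers were below 0, against 43.6% of all genes compared. At least 2-fold lower were 6 of them, against 2.11% of all genes compared. The largest falls were those of Cubn at -3.62, Gata6 at -2.16, Pdgfra at -1.50 and Sox7 at -1.36. Over the 10 listed markers the summed level was 184 CPM in KO cells and 448 CPM in wild type cells, and neither Sox17 nor Foxa2 reached 1 CPM in either library. Of 10 compared fibroblast markers, which stand for feeder cells, 8 were below 0 and 1, Prrx1 at -1.01, was at least 2-fold lower. By 1.5-fold or more 2 were lower and 2 were higher, Tagln at 0.63 and Pdgfrb at 0.63, a pair picked out once the values were known. The shares of all genes compared were 6.77% lower and 7.42% higher. Their summed level over 13 listed markers was 144 CPM in KO cells and 160 CPM in wild type cells, and Lum was listed at 0 in KO cells. The part of these cells in the levels of Dusp1, Dusp4 and the other lower members was not tested.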

How the data were processed

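Total RNA of 1 Setd2 KO and 1 wild type mouse embryonic stem cell library was sequenced on an Illumina instrument, and RNA was purified on a silica column, per the labels' protocols. The submitters' processing notes list TopHat 1.0.13, CASAVA 1.6.0 and the mm9 build without saying what each did. The sources used here do not say how multiply aligned reads or strand were handled. The table's 17827 rows are headed RPKM per the file headers, but the deposited values are log2 values that fit log2(x + 1) of read equivalents, x, unscaled by depth or length. Of the x between 0 and 200, 85.7% in the KO library and 85.9% in the wild type library were whole multiples of 1 base within 0.05 of a base. Median level also rose with exon length, from 13.1 CPM over the 3199 genes with the shortest exons to 47.9 CPM over the 3198 with the longest.

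Values were turned back, scaled to 1000000 per library, and compared with a pseudocount of 0.5 CPM where the mean of both libraries reached 1 CPM. Where a symbol had several rows, the highest was used. Ratio intervals are exact conditional binomial 95% intervals on rounded read equivalents (scipy 1.17.1), and level intervals are exact Poisson ones. They cover counting error only, since, with no molecular identifiers, reads are not independent molecules. Depth was 52.0 read equivalents per CPM in the KO library and 56.1 in the wild type library. With 1 library per group no test was possible. The procedure was also run on simulated counts that held counting error only, so the run cannot show how far 2 lines differ without a cause. Intervals held the set fold for 95.1% of unchanged genes and 88.0% of 50 genes set 3-fold higher. Of the genes set 3-fold higher 100% passed the 2-fold threshold, and of 50 set 3-fold lower 92.0% did. Exon lengths came from GENCODE on NCBIM37, the assembly of mm9, where all 10 members matched. Windows were aligned with minimap2 2.31, with at most 2 mismatches. Proteins were translated from the annotation's longest coding transcripts and aligned globally with Biopython 1.88.

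Members and lists were chosen with earlier results of these data known. Named were all members and Setd2, the 3 genes of each other list with the largest absolute fold at a mean of at least 5 CPM, the main substrates (1 is not reported here), and up to 4 markers a list beyond 2-fold. Likeness of pattern between genes was not computed over 2 libraries.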

Additional observations from a re-analysis of the deposited data

How the results depend on the processing

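No paired analysis was possible because there was 1 KO library and 1 wild type library. Leaving out a library was not possible either. The setting without chromosome 8 was chosen after the results were seen. All 60 recomputed member folds kept the sign of the reported one. Of the 60, 56 moved by less than the distance from the middle of the log2 counting interval to its end. The others were Dusp6 under each of the 3 rescalings (0.31 to 0.33, against 0.37 as reported) and Dusp9 with the trimmed mean (-0.25, against -0.19). Dusp2 ranged from -0.72 to -0.36 with the pseudocount. Over the pseudocounts and rescalings together, Dusp1 ranged from -1.31 to -1.25 and Dusp4 from -1.45 to -1.37. Rescaling moved all folds by under 0.1. Under it the Setd2 log2 fold was -1.43 with the trimmed mean, -1.43 when the median ratio was centred on 0 and -1.41 with the upper quartile, and the cytoplasmic median was -0.25 with the trimmed mean. The split of all calls at 2-fold was 54.5% lower as reported, 50.9% without chromosome 8 and 64.2% with a floor of 5 CPM. That floor left 108 higher genes and put the JNK and p38 median at -0.013, from Dusp16 alone. With no floor, which brings in Dusp2, the inducible median was -0.91, and without chromosome 8, which removes Dusp4, it was -0.91 too, with 1 member at least 2-fold lower and an immediate early median of -0.53. As the thresholds imply, 1004 genes were higher and 916 lower at 1.5-fold, and 62 were higher and 93 lower at 3-fold, where 0 members were lower. Per length of the longest transcript, the summed levels of the JNK and p38 group were 12.7 CPM per kilobase in KO cells and 12.4 in wild type cells, and KO as a percentage of wild type was 42.0% for the inducible, 111.7% for the cytoplasmic and 102.8% for the JNK and p38 group. Depth limits Dusp2, Dusp8 and Dusp10. Differences between the lines beyond Setd2, such as Y-linked genes and chromosome 8, cannot be told apart from genotype.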
